A study of Rattus norvegicus with 6 samples.

Results

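The measurements concern 6 miRNA assays, all outside the muscle miRNAs, that had less signal in myocyte-derived cells (MDCs) than in cardiomyocytes, relative to the control RNA U6: mmu-miR-328, mmu-miR-484, mmu-miR-139-5p, rno-miR-339-3p, mmu-miR-345-3p and rno-miR-345-3p. They are 6 of the 375 miRNA assays on a rodent TaqMan low-density array, a card whose wells are separate PCR assays for different small RNAs, and the prefix gives the species (mouse or rat) for which an assay was designed. The 6 were picked because they had much less signal in MDCs than in cardiomyocytes in the data described here, so the differences of the 6 between the groups are given as a description and without a test. They were picked as strong losses, which suits rno-miR-345-3p least: its difference was the 16th lowest of 157 measured ones, and 38 of the 39 upper bounds for miRNAs without signal in MDCs lay below it. Nor are the 6 as a set the strongest losses outside the muscle miRNAs. The bound of mmu-miR-345-3p was the 13th lowest of the 39, and miR-200c and miR-490 were among those with lower ones. There is no numerical threshold in the choice, and therefore no list of assays just inside or just outside it.

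The MDC sets came from the small round cells that appear above confluent cultures of purified adult cardiomyocytes, and the myocyte sets from the purified cardiomyocytes. Both groups came from Wistar-Kyoto rats that were 2 months old per the labels. The labels give 2 weeks of culture in mitogen-rich medium also for the myocyte samples, whereas the study's text describes the myocytes of this comparison as fresh. No transgene or drug is given for either group. If the myocytes were fresh, time in that medium, with its serum and growth factors, also separates the groups. The sources used here do not settle this. Each group has 3 deposited sets of Ct values, MDC 1 to MDC 3 and Myocyte 1 to Myocyte 3.

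MicroRNAs are cut from a hairpin precursor, which can release a mature strand from its 5′ arm (5p) and another from its 3′ arm (3p). A mature miRNA guides a silencing complex to messenger RNAs, mainly through the seed near its 5′ end, and lowers their translation or stability. In heart muscle, miR-328 is known from atria of dogs and mice as a repressor of L-type calcium channel subunits, and miR-484 from mouse cardiomyocytes as a repressor of the mitochondrial fission protein Fis1.

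The sequences show which assays share a precursor and which do not. Of the 6 assays, 4 were matched with a mature rat miRNA in the RefSeq annotation of GRCr8. Mouse assays were matched through the rat miRNA of the same name. mmu-miR-345-3p, whose rat namesake is also that of the assay rno-miR-345-3p, was not counted. The 4 sequences are given with the seed, bases 2 to 8, in capitals, and with those of the partner arms whose assays are compared further on.
rno-miR-139-5p: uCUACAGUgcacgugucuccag
rno-miR-484: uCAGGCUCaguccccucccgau
rno-miR-339-3p: uGAGCGCCucgacgacagagcca
rno-miR-345-3p: cCCUGAACuaggggucuggaga
rno-miR-339-5p: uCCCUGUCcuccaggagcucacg
rno-miR-345-5p: uGCUGACCccuaguccagugc

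No pair of the 4 matched miRNAs shares a seed, and they lie on different chromosomes. MiR-139-5p (chr1:165290865-165290886, plus strand) lies within Pde2a, the gene of a cyclic nucleotide phosphodiesterase, and miR-339-3p (chr12:20391445-20391467, plus strand) within C12h7orf50. MiR-345-3p (chr6:133518456-133518477, plus strand) lies within the long noncoding RNA gene LOC134479257, between the mitochondrial carrier genes Slc25a29 and Slc25a47. MiR-484 (chr10:1394915-1394936, minus strand) lies between Nde1 and Marf1, and the gene of miR-328, Mir328, lies within Elmo3. No other miRNA gene represented on the card was found within 50 kb of any of the 5 hairpins.

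In the hairpins of Mir339 (chr12:20391395-20391490) and Mir345 (chr6:133518403-133518498), both on the plus strand, the capitals mark the 5p and then the 3p arm. They are shown because the card holds assays for both arms, and the arms of a hairpin start from 1 transcript.
Mir339: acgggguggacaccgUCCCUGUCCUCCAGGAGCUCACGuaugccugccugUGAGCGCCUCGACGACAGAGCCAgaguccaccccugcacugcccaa
Mir345: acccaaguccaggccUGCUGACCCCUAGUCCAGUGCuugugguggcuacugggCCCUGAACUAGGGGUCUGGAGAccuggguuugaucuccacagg

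Each well gives a Ct, the number of PCR cycles run before the fluorescence crosses a set threshold; a Ct later by 1 cycle stands for less template, by about a factor of 2. Levels are log2 values, obtained by subtracting each Ct from the average of the 4 U6 wells in that set, so that a lower level means less of the miRNA relative to the small nuclear RNA U6. A Ct of 40 or an undetermined one was read as no signal. Signal was present for 201 miRNAs in each MDC set and for 203 to 212 in the myocyte sets, and the median Ct of these lay between 23.06 and 24.95 in MDCs and between 24.68 and 25.03 in myocytes. Within a group, Myocyte 2 and Myocyte 3 had identical wells of no signal, as did the 3 MDC sets. Sets that matched in this way were treated as repeated readings of a card, and their mean was used, so that the comparison has 1 MDC sample and 2 myocyte samples. This merging is an inference from the wells. The labels do not say which sets share a card, and the study's methods describe biological as well as technical repeats, so that the replication used here differs from theirs. The p-values below rest on the spread between the 2 myocyte samples, which may be technical. The spread among MDC cultures does not enter them, and the smallest p that an exact permutation test allows with these samples is 0.333.

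MDC 1 stood apart from the other sets. Of its 208 wells with signal, 207 (99.5%) lay within 0.1 cycles of a whole cycle, against 19.2% and 21.6% in the other MDC sets and 16.7% to 21.4% in the myocyte sets. Differences are therefore also given without MDC 1. The part of this pattern in the values was not tested.

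**Figure D1:**
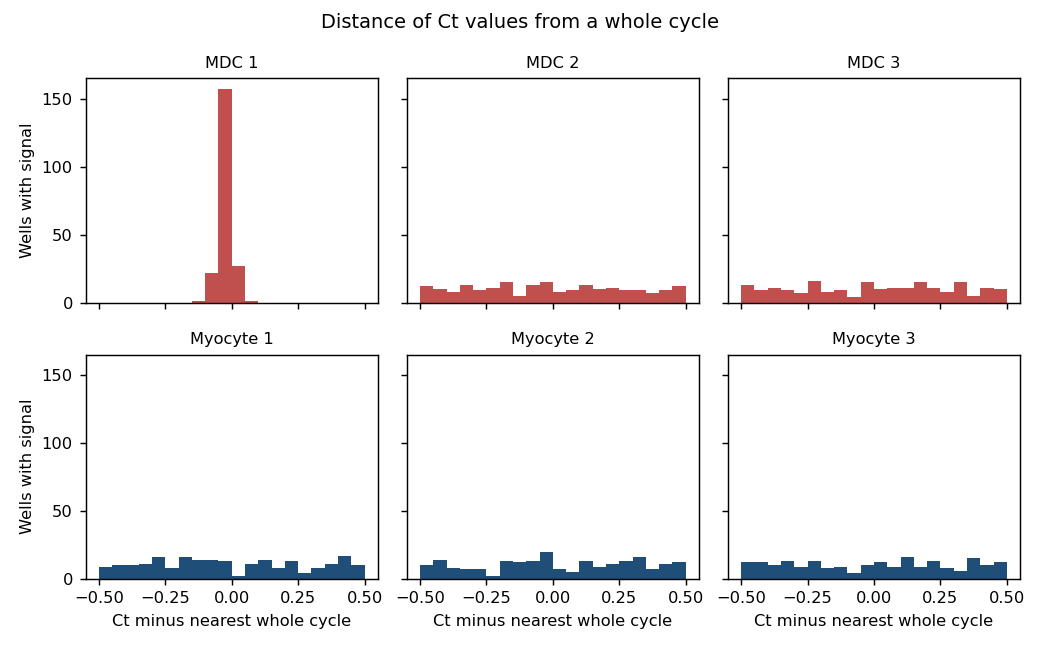
Number of wells with signal by Ct minus the nearest whole cycle (cycles), as 1 histogram for each deposited set. The share of wells within 0.1 cycles of a whole cycle was 99.5% in MDC 1, and between 16.7% and 21.6% in the other 5 sets.

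All 6 assays had signal in every myocyte set, and 3 of the 6 had none in any MDC set. The lowest myocyte level lay above the highest MDC level for each of the 6, as for 117 of the 196 miRNAs with signal in both myocyte samples (59.7%), a well without signal being counted as lowest. The loss of all signal was seen for 39 of these 196 (19.9%). Since the 6 were chosen on this contrast, nothing follows from their counts. The median difference of the 6, MDC minus myocyte, was -13.22 with the 3 lost assays at their bounds, beside -0.73 over the 240 miRNAs with signal throughout at least 1 group. Without MDC 1 these medians were -13.59 for the 6 and -0.28 for all, and with MDC 1 alone -12.46 and -1.63. Less of a miRNA per cell and fewer cells that make it cannot be told apart in RNA pooled from many cells.

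**Figure D2:**
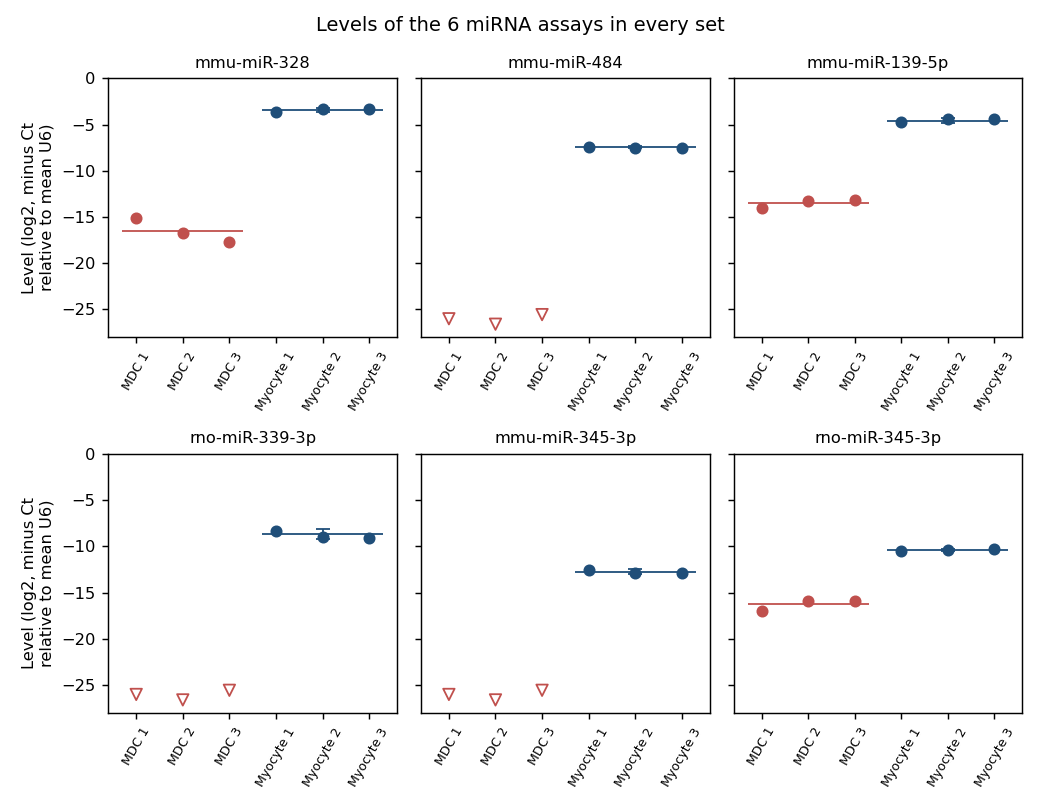
Level relative to U6 (log2) of the 6 assays, 1 panel each, with a point for each MDC set (red, left) and each myocyte set (blue, right), a line at the group's level, and bars for the SD of the 2 myocyte samples; open triangles mark no signal, drawn at Ct 40. For each assay, all MDC values lie below all myocyte values.

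MiR-328, the calcium channel regulator, had the earliest Ct of the 6 in myocytes. Its Ct was 29.0, 30.2 and 32.2 in the MDC sets, against 18.3, 18.2 and 18.4 in the myocyte sets. Relative to U6 its level was -15.07, -16.78 and -17.75 in MDCs, against -3.58, -3.31 and -3.30 in myocytes. Ordered by Ct, it took rank 170, 185 and 187 of 201 miRNAs in MDCs and rank 19 in every myocyte set, although an assay's efficiency also enters such an order. The groups were far from overlapping.

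The level of miR-328 in MDCs minus that in myocytes was -13.09, which is an 8714-fold difference, against a myocyte SD of 0.20 (n = 2). With the MDC readings averaged, it was the lowest difference of the 157 miRNAs with signal in all samples, followed by that of the muscle miRNA miR-133a (-12.59). It also ranked lowest with MDC 2 alone and with MDC 3 alone, but 4th with MDC 1 alone, where miR-150 was lowest (-13.76). Without MDC 1 the difference was -13.82, and with the MDC readings taken alone it was -11.63, -13.34 and -14.30. The MDC readings of miR-328 were more spread than those of most miRNAs: they spanned 2.68 log2 units, the 9th widest span of 201 miRNAs, whose median span was 1.57.

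Part of this spread lay between MDC 2 and MDC 3. Over 201 miRNAs, MDC 3 had a later Ct than MDC 2 by a median of 0.935 cycles, and the gap ranged between 0.703 and 2.71 cycles. For miR-328 it was 2.01 cycles, the 10th largest. For miR-139-5p and rno-miR-345-3p it was 0.925 and 0.983 cycles, close to the median. The endogenous controls also differed among themselves, with gaps of 2.02 cycles for U87 and 2.22 for Y1, but 1.13 for snoRNA135. On the myocyte side, the gap between Myocyte 3 and Myocyte 2 was 0.192, 0.165 and 0.174 cycles for miR-328, miR-139-5p and rno-miR-345-3p, beside a median of 0.178.

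**Figure D3:**
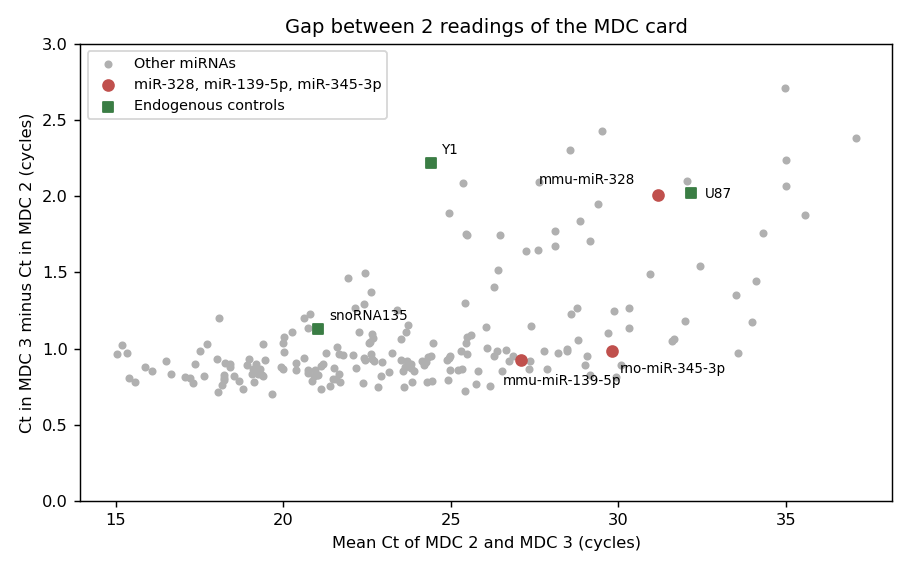
Ct in MDC 3 minus Ct in MDC 2 (cycles) against the mean Ct of the same readings (cycles), for 201 miRNAs and the endogenous controls. miR-328 lies at 2.01 cycles near U87 (2.02), and miR-139-5p (0.925) and rno-miR-345-3p (0.983) lie in the main band.

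MiR-484, the regulator of mitochondrial fission, had no signal in any MDC set. In myocytes its Ct was 22.1, 22.4 and 22.6, and its level was -7.39, -7.52 and -7.48 (-7.44 ± 0.08 with the readings of a card averaged, SD, n = 2). If a well without signal is placed at Ct 40, the difference was at most -18.62, the lowest of the 39 such bounds, next to the muscle miRNA miR-208 (-18.49). With the limit of detection drawn at Ct 35 or Ct 32 instead, the bound was -13.62 or -10.62. How deep the loss went is not known, since the bound moves with the limit chosen.

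Wells lost on 1 myocyte card alone were few at this level of signal. Of 143 miRNAs with a Ct before 28 on the card of Myocyte 1, 1 (miR-98, Ct 25.2) had no signal on the other myocyte card, and before Ct 25 there was none of 106. In the reverse direction there was none of 140. These counts compare myocyte cards only, so they cannot show how often a well failed on the MDC card. For miR-484, rno-miR-339-3p and mmu-miR-345-3p the MDC value rests on 1 well of what was taken as 1 card.

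The seed of miR-484, CAGGCUC, occurs also in rat miR-344-5p and miR-344a-5p. The assay rno-miR-344-5p gave no signal in any of the 6 sets, so that no level of a seed relative can be set beside that of miR-484. Among the rat mature sequences of the table, none shared the seed of miR-139-5p, miR-339-3p or miR-345-3p. Only 94 of the 375 assays on the card matched a sequence of that table by name, with a mouse prefix read as rat. The seeds of the others were not checked.

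MiR-139-5p, which is described in human tumours as a restraint on growth, kept a clear signal in MDCs. Its Ct was 27.95, 26.6 and 27.6 in the MDC sets, against 19.4, 19.3 and 19.5 in the myocyte sets. Its level was -13.98, -13.25 and -13.13 in MDCs, against -4.74, -4.40 and -4.36 in myocytes. The difference was -8.89 (475-fold; myocyte SD 0.25, n = 2), and -8.63 without MDC 1. It was the 8th lowest of the 157, after miR-328, miR-133a, miR-150, both miR-1 assays, miR-133b and miR-499. The assay mmu-miR-139-3p for the other arm had no signal in any set, so that the arms of this hairpin could not be compared.

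The Mir345 hairpin was read by 3 assays. rno-miR-345-3p had a Ct of 31.0, 29.3 and 30.3 in MDCs, against 25.1, 25.2 and 25.4 in myocytes. Its level was -17.00, -15.94 and -15.88 in MDCs, against -10.47, -10.33 and -10.30 in myocytes. The difference was -5.88 (59.0-fold; myocyte SD 0.10, n = 2), and -5.52 without MDC 1. It was the 16th lowest of the 157, and apart from miR-328 and miR-139-5p the lower ones were other miRNAs.

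mmu-miR-345-3p, the mouse assay for the same arm, had no signal in MDCs and a Ct of 27.2, 27.8 and 27.98 in myocytes. Its myocyte level was -12.72 ± 0.23 (SD, n = 2), and its difference was at most -13.34. At a limit of Ct 35 or Ct 32 this bound was -8.34 or -5.34, so that at the strictest limit it no longer lay below the value of the rat assay. The bound of -13.34 was the 13th lowest of the 39. Outside the 6 and the muscle miRNAs, miR-200c (-17.25), miR-345-5p (-17.22), miR-490 (-16.71) and miR-384-5p (-16.32) had bounds below it. So did miR-322 (-16.14), miR-17-3p (-15.8) and miR-455 (-13.73).

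The mouse and rat assays for this arm can be set side by side in myocytes. The mouse assay read 2.09, 2.57 and 2.57 cycles later than the rat assay in Myocyte 1, 2 and 3. With the mean of the 2 samples (2.33 cycles) added to the Ct of the rat assay, the mouse assay would have been at Ct 33.3, 31.7 and 32.6 in the MDC sets, where it had no signal. In those sets 8, 10 and 12 miRNAs had a signal later than that. What each assay detects was not tested.

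The 5p arm of Mir345 was not among the 6 but showed a loss of signal of the same kind. mmu-miR-345-5p had no signal in MDCs, and its Ct in myocytes was 23.5, 23.8 and 24.0. Its myocyte level was -8.84 ± 0.05 (SD, n = 2), so that the difference was at most -17.22, the 5th lowest bound. Minus the difference of rno-miR-345-3p, this gave at most -11.34 with a missing Ct at 40, a bound that an earlier limit would raise. A mouse and a rat assay were compared here, and the part of the assay design was not tested. Against mmu-miR-345-3p, the mouse assay of the 3p arm, no arm difference can be given, since neither mouse assay had signal in MDCs.

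The arms of Mir339 gave unlike values. rno-miR-339-3p had no signal in MDCs, while its Ct in myocytes was 23.0, 23.9 and 24.2 and its level -8.27, -8.97 and -9.10 (-8.65 ± 0.54 with the readings of a card averaged, SD, n = 2). Its bound of -17.42 was the third lowest of the 39. Limits at Ct 35 and Ct 32 gave -12.41 and -9.41. The mouse assay of this arm, mmu-miR-339-3p, had no signal in any set.

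The other arm kept its signal. The Ct of mmu-miR-339-5p was 23.0, 21.7 and 22.8 in MDCs, against 22.8, 23.0 and 23.2 in myocytes. Its level was -9.00, -8.32 and -8.38 in MDCs (mean -8.57), against -8.13, -8.05 and -8.05 in myocytes (-8.09 ± 0.06, SD, n = 2). The Ct values of the groups overlapped, while all 3 MDC levels were below the myocyte levels. The difference of -0.48 (SE 0.35) did not pass the test by limma (adjusted p = 0.194), which does not show that the levels were equal. Without MDC 1 it was -0.26 (adjusted p = 0.496, limma), and with MDC 1 alone -0.92 (adjusted p = 0.0121, limma). Its direction turned with most other normalizers. It was 5.76 with the mean of snoRNA135, U87 and Y1, 4.01 with Y1 alone and 13.61 with U87 alone, all past the threshold, and 0.36 to 0.43 with the mean or the median of the miRNAs detected in every set or no normalizer, which did not pass. The difference of the 3p arm minus that of the 5p arm was at most -16.93 with a missing Ct at 40, but the arms were read by a rat and a mouse assay, and the part of the assay design was not tested.

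**Figure D4:**
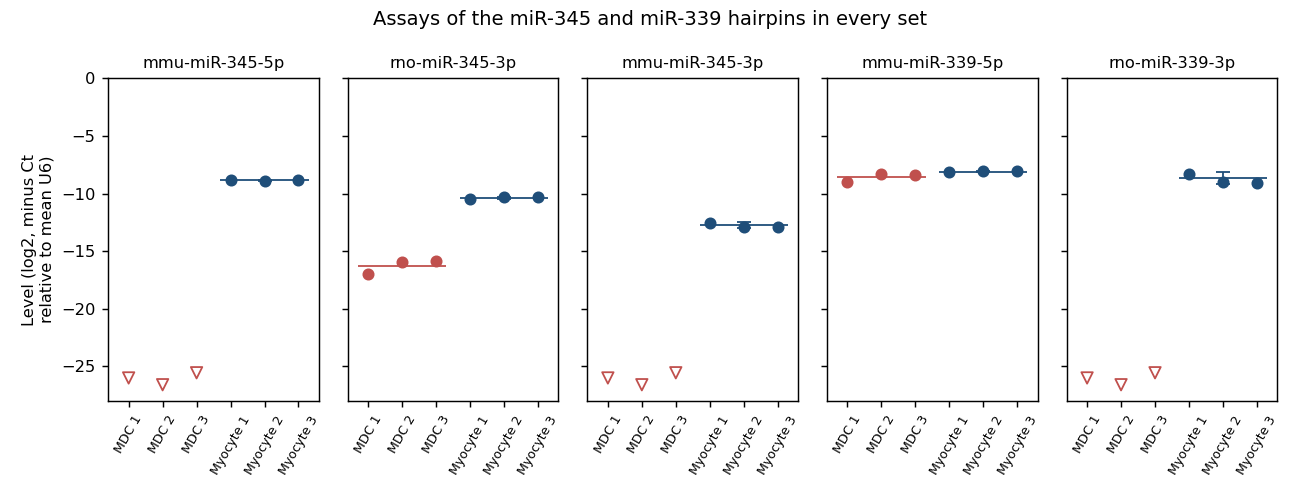
Level relative to U6 (log2) of the assays for the arms of Mir345 and Mir339, 1 panel each, with MDC sets red (left) and myocyte sets blue (right), lines at the group's level, bars for the SD of the 2 myocyte samples, and open triangles for no signal, drawn at Ct 40. The groups lie nearest to each other for mmu-miR-339-5p (-8.57 in MDCs, -8.09 in myocytes), and the other 4 assays lie lower or have no signal in MDCs.

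Over all miRNAs, the same contrast was broad. Of 157 miRNAs tested with limma, 82 were lower in MDCs (52.2%), 44 were higher (28%) and 31 did not pass the adjusted threshold of 0.05. This split holds on the U6 scale. It was 72 lower and 40 higher with snoRNA135, 65 and 64 with the mean of the detected miRNAs, 67 and 61 with their median, 64 and 62 with no normalizer, and 10 and 140 with the mean of snoRNA135, U87 and Y1. A further 39 miRNAs had signal in myocytes only and 35 in MDCs only. The measured differences that lay between those of miR-328 and miR-139-5p were those of miR-133a, miR-150, both miR-1 assays, miR-133b and miR-499. Between miR-139-5p and rno-miR-345-3p in that order came miR-126-3p, miR-126-5p, miR-30c, miR-141, miR-30b, miR-30a and miR-30e, with differences from -8.35 to -5.93.

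**Figure D5:**
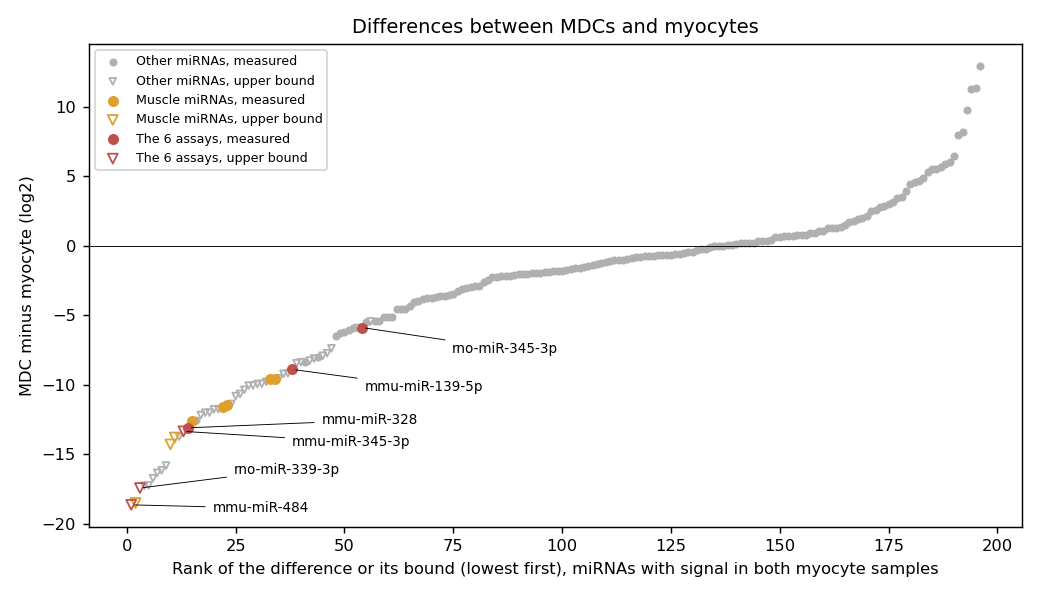
Difference between MDCs and myocytes (log2, MDC minus myocyte) of the 196 miRNAs with signal in both myocyte samples, in order, with triangles for upper bounds at Ct 40. The 6 assays and the muscle miRNAs are coloured; miR-484 has the lowest bound (-18.62) and miR-328 the lowest measured difference (-13.09) with the MDC readings averaged.

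The miRNAs nearest in pattern differed between the 3 assays with signal in every set. After each miRNA was centred on its own mean over the 6 sets, the root mean square distance to miR-328 was smallest for miR-133a (0.92 log2 units), miR-133b (1.01) and miR-150 (1.41) among 154 miRNAs. For miR-139-5p these were miR-126-3p (0.34), miR-126-5p (0.48) and miR-499 (0.51), the first 2 being endothelial markers. For rno-miR-345-3p they were miR-30e (0.16), miR-146b (0.25) and miR-30b (0.27). These profiles are governed by the difference between the groups, on which the assays were chosen, so that the nearest miRNAs are largely those next to them in order of that difference. The sets also share cards and the U6 scale.

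Other miRNAs known to act on cardiac ion channels were lower in MDCs relative to U6. Without miR-328, 6 of the 6 tested assays of this list were lower in MDCs by limma, beside 82 of the 157 miRNAs tested (52.2%). Their median difference was -10.48, against -0.80 over all 157 tested, and the myosin-hosted miR-208 had signal in myocytes only. Both miR-1 assays (-9.55 and -11.61), miR-133a (-12.59) and miR-133b (-11.41) are muscle miRNAs with potassium channel or calcium handling targets, while the more widely expressed miR-26a and miR-26b differed by -2.46 and -3.54. With the mean of snoRNA135, U87 and Y1 in place of U6, miR-26a and miR-26b were higher in MDCs and the other 4 lower. This list and the next were drawn up with results of these data known.

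Among miRNAs known to act on mitochondrial fission and fusion, without miR-484, 6 of 7 were lower, with a median of -6.08, beside 82 of 157 (52.2%) and -0.80 over all miRNAs tested. They were miR-499 (-9.57), a repressor of calcineurin and thereby of fission, and the 5 measured strands of the miR-30 family, which act on p53 upstream of the fission protein Drp1. MiR-140, a repressor of mitofusin 1, differed by -0.04 and did not pass (adjusted p = 0.915, limma). MiR-140 was lower with MDC 1 alone, and higher with each normalizer tried in place of U6 except snoRNA135. With the mean of the other 3 controls, 1 of the 7 was lower and miR-30d and miR-140 were higher, and with U87 alone none was lower and all 7 were higher.

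Markers of cell types also differed between the groups relative to U6, in both directions. For the marker counts here and below, the shares over all miRNAs were 52.2% lower and 28% higher among the 157 tested. Of the 196 with signal in both myocyte samples, 19.9% had none in MDCs. Of 8 assays for cardiomyocyte markers, among them both miR-1 assays, 5 were lower and 3 had signal in myocytes only. Their summed level relative to U6 was 0.00366 to 0.00636 in MDCs, against 20.02 to 23.8 in myocytes. Both endothelial markers, the strands of miR-126, were lower, with a summed level of 0.000137 to 0.000373 in MDCs and 0.0730 to 0.0979 in myocytes. The myocyte label thus stood with high muscle miRNAs. It also stood with miR-126-3p at -3.70, a myocyte level between those of the muscle miRNAs miR-133b (-0.91) and miR-499 (-4.57). An assay's efficiency also enters such levels.

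Of 5 fibroblast markers, 4 were higher and the fifth, miR-199a-5p, was detected in MDCs alone, with a summed level of 0.286 to 0.551 in MDCs, against 0.0163 to 0.0177 in myocytes. Of 5 leukocyte markers, 3 were lower (miR-142-3p, miR-150 and miR-223), miR-155 was higher and miR-142-5p had signal in MDCs only, with a summed level of 0.00805 to 0.0409 in MDCs and 0.0550 to 0.0608 in myocytes. The smooth muscle markers (miR-145, miR-143) were both lower. Their direction turned when the mean of snoRNA135, U87 and Y1 replaced U6, as did that of miR-223 and miR-142-3p. The erythroid marker miR-451 had signal in myocytes only. With U87 alone as the normalizer every tested miRNA, the markers included, was higher in MDCs. Several of these markers are not particular to a single cell type. The part of any of these cell types in the differences of the 6 assays was not tested.

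The choice of the endogenous control sets the size of every difference. snoRNA135 differed by -0.13 relative to U6, whereas Y1, a small cytoplasmic RNA, differed by -4.49, and the small nucleolar RNA U87 by -14.09. The Ct of U87 was 31.0, 31.2 and 33.2 in MDCs, against 18.6, 18.5 and 18.7 in myocytes, and its difference relative to U6 was lower than that of miR-328. With the mean of these 3 controls the difference was -6.85 for miR-328, -2.65 for miR-139-5p and 0.36 for rno-miR-345-3p. With U87 alone, these differences became 1.00, 5.20 and 8.21. The median of the 6 assays minus that of all miRNAs was -12.49 with each normalizer, since a normalizer moves all miRNAs alike.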

How the data were processed

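The deposited values are Ct cycles (raw Ct, with no unit of mass or reads), taken by the authors from TaqMan cards after reverse transcription and pre-amplification. A deposited table of Ct minus mean U6 differed from the raw files by at most 5e-05 cycles and was used only for this check. Neither the threshold settings nor the depth behind a Ct is given in the sources used here. Levels were minus (Ct minus mean U6 Ct). Readings with identical wells of no signal were averaged. The test was that of limma (version 3.58.1, R 4.3.3), run over the miRNAs detected in all samples, with Benjamini-Hochberg adjustment at 0.05. A trial of it on simulated data drew every sample with the same SD, so it says nothing about the unmeasured spread among MDC cultures. The moderated SD was 0.28 for all miRNAs, and the spread of MDC cultures does not enter the p-values. Python 3.11.15 with pandas 2.3.3 and matplotlib 3.10.9 was used for tables and figures.

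The 6 assays and the lists were chosen with earlier results of these data known. Named miRNAs are the 6 assays, their partner arms, seed relatives and neighbours, the 3 nearest in pattern, miRNAs between them in order of difference, muscle miRNAs and list members; the markers, controls and miR-98 were added beside their counts. Alternatives covered the normalizer, the limit of detection, missing values, the merging of readings, a replicate block, the methods' unpaired test and leaving out each set; the version without MDC 1 was chosen after its Ct pattern was seen.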

Additional observations from a re-analysis of the deposited data

How the results depend on the processing

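The normalizer moved the counts furthest. With the mean of snoRNA135, U87 and Y1, the median of all miRNAs moved by 6.24 to 5.51, 10 miRNAs were lower and 140 higher, 1 of the 7 mitochondrial miRNAs was lower, and the median of the 6 assays was -6.98, with 5.76 for miR-339-5p and 0.36 for rno-miR-345-3p. With U87 alone, 0 were lower and 157 higher, 0 in either cardiac list were lower, the median of the 6 was 0.88 and of all miRNAs 13.37, and the values were 13.61 for miR-339-5p, 1.00 for miR-328, 5.20 for miR-139-5p and 8.21 for rno-miR-345-3p. The bound for mmu-miR-345-3p was then 0.75, which leaves its sign undecided. With Y1 alone, 16 were lower and 120 higher, and the medians were -8.73 for the 6 and 3.76 for all miRNAs, with 4.01 for miR-339-5p. With the mean of all detected miRNAs, their median and no normalizer, the median of the 6 was -12.31, -12.38 and -12.30, that of all miRNAs 0.18, 0.11 and 0.19, and miR-339-5p 0.42, 0.36 and 0.43.

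Limits at Ct 35 and Ct 32 gave a median of -10.65 and -9.15 for the 6, by the construction of the bounds. Missing values at 40 gave 113 lower and 80 higher among 240 tested. MDC 1, MDC 2 and MDC 3 alone gave medians of -12.46, -13.61 and -13.57, and miR-339-5p was -0.92 with MDC 1 alone. Leaving out 1 set gave medians between -13.59 and -13.02; without Myocyte 1 no spread between samples is left, so only values were computed. Deviations from the group mean correlated by 0.12, -0.08 and 0.24 between MDC and myocyte sets of the same replicate number, over 157 miRNAs. If the MDC sets are readings of 1 card, these values cannot show whether cultures were paired. With all 6 sets as samples, a replicate block gave 69 lower and 34 higher, against 69 and 35 without the block. The causes were not tested.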
